A study of Mus musculus with 18 samples.

Results

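Interferon-stimulated genes were followed across the livers of chow-fed, high-fat-fed and drug-treated mice. They comprised 34 genes of the 54532 in the expression table and were found by gene symbol from a fixed list of names. Of these, 30 had a mean of at least 1 FPKM (fragments scaled by gene length and library size) over all mice and were tested among 10216 genes. Oas2, Oasl2, Mx1 and Ifi44 lay below that level and are given by their values.

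Liver RNA was sequenced from 18 male C57BL/6J mice, 6 in each of 3 groups, that were 6 weeks old when they entered the study and were fasted overnight before sampling. The normal control (NC) mice ate a standard diet throughout. The HFD mice ate a high-fat diet for 14 weeks and then received saline, and the SZ-A mice ate the same diet and then received SZ-A, the alkaloid fraction of mulberry twig (Ramulus Mori), with the diet continued. Dosing lasted 6 weeks by the methods of the study but 8 by the deposited design text, and the dose and route of the sequenced mice were not given in the sources used here.

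One library was labelled in conflicting ways. Mouse NC6 has a chow title and a high-fat diet label, and it was kept in NC by its title. Over the 2025 genes called between HFD and the other NC mice, its median position was 0.31 on a scale where 0 is the NC mean and 1 the HFD mean. The other NC mice, each over the genes called without it, stood at -0.11 to 0.15. NC6 was also the highest NC mouse for 21 of the 34 genes. For the 30 tested genes, the totals called higher than in NC or wholly above the NC range are given with and without NC6. Counts at an unadjusted p, and those of other pathway genes and of markers, include NC6 and are not given without it. At the other end, NC5 was the lowest NC mouse for 17 of the 34. Fragments on genes numbered 17163191 to 20493907 per mouse, and each tested gene held between 22 and 8260 fragments in a mouse.

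Interferons are secreted proteins that warn cells of infection. Type I and type III interferons act through receptor-bound kinases to assemble the complex ISGF3, which holds STAT2 and IRF9 and binds the interferon-stimulated response element (ISRE). Interferon gamma acts instead through the gamma-activated sequence (GAS). The genes switched on encode sensors of foreign nucleic acid, proteins that block viral RNA, the ubiquitin-like modifier ISG15, and large GTPases that attack the vacuoles of intracellular microbes. In liver, hepatocytes as well as Kupffer cells, the resident macrophages, can mount this response.

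The promoters show what many of the genes share. The RefSeq promoter table of GRCm38.p6, with 250 bases before and 50 bases after each gene start, held 24 of the 34 genes, and Dhx58, Zbp1, Oas2, Mx1, Usp18, Iigp1, Ifi27l2a, Ifi27, Rtp4 and Parp14 had no entry. The ISRE core, GAAANNGAAA on either strand, was present in 14 of 24 genes (58.333%) against 3.993% of all 27025 genes in the table. The GAS core, TTCNNNGAA, reads alike on both strands and was present in 7 of 24 (29.167%) against 9.554%. Either core was found in 17 genes and both in 4, and in Bst2 a GAS match overlapped an ISRE match. The windows below show the ISRE matches of 6 genes that were higher in HFD than in NC and 3 that were not called, with capitals marking the matched bases on the strand of the gene.
Isg15, chr4:156200850-156200921, minus strand: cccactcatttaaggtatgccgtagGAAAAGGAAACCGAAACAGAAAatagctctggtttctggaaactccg
Ifit1, chr19:34640760-34640838, plus strand: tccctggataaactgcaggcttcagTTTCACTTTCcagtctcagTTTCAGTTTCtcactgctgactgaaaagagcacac
Ifit3, chr19:34583348-34583441, plus strand: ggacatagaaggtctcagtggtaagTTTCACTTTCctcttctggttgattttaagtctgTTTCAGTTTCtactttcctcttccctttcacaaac
Oas1a, chr5:120907526-120907570, minus strand: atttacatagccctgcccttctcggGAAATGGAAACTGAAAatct
Gbp3, chr3:142559974-142560039, plus strand: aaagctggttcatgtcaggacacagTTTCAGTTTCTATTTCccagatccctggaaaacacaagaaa
Irgm1, chr11:48871421-48871475, minus strand: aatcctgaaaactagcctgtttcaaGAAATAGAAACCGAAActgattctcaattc
Gbp2, chr3:142620579-142620638, plus strand: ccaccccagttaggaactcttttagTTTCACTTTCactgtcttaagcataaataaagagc
Rsad2, chr12:26456538-26456597, minus strand: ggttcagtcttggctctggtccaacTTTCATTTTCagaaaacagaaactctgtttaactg
Stat2, chr10:128270251-128270310, plus strand: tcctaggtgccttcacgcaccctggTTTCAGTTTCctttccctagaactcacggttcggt

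Isg15 carried 3 overlapping matches between 78 and 57 bases before its start, the most of any of these genes. Ifit1, Ifit3, Oas1a, Bst2, Gbp3 and Irgm1 carried a pair each. Among the genes with a promoter entry, an ISRE core was present in 11 of the 16 that were called higher in HFD and in 3 of the 6 that were tested and not called. Oasl2 and Ifi44, below the level tested, held none. A match describes letters in this window and does not show that a factor binds there.

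**Figure D1:**
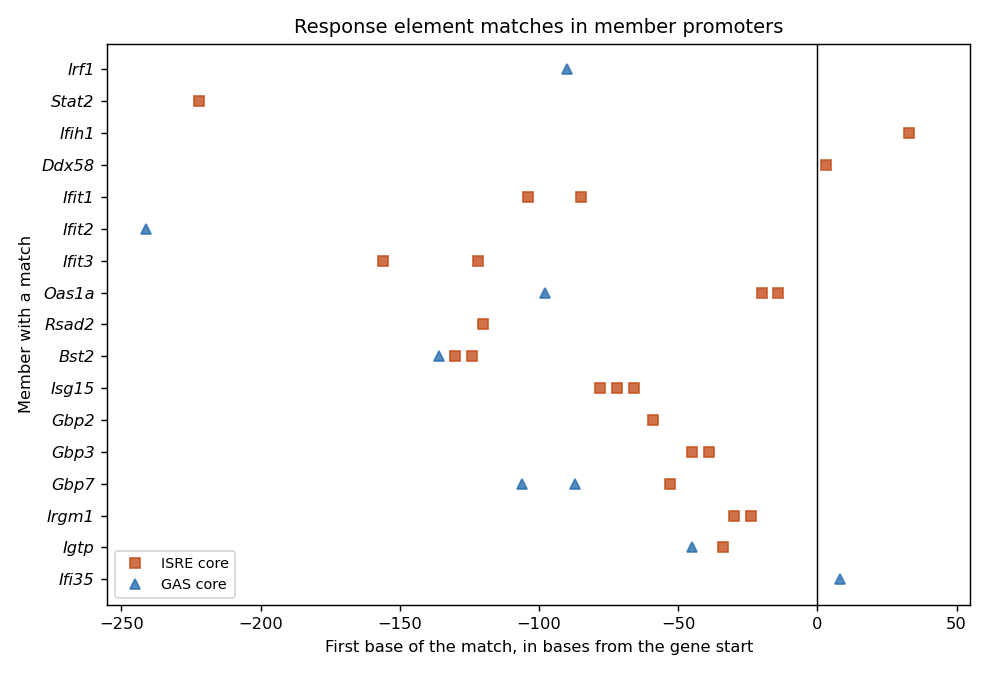
Position of ISRE core (squares) and GAS core (triangles) matches in the 17 promoters that held either, in bases from the gene start (line at 0), with 1 row per gene. The 3 squares of Isg15 lie between 78 and 66 bases before the start, and Ddx58 and Ifih1 are the genes whose ISRE match begins after it.

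The first question was how the high-fat diet related to these genes. In HFD livers 22 of the 30 tested genes were called higher than in NC and none lower (limma, Benjamini-Hochberg adjusted p under 0.05 over all genes tested and fold over 1.2). Over all 10216 genes, 10.7% were called higher and 9.49% lower. At an unadjusted p under 0.05, again with a fold over 1.2, 26 of the 30 were higher, against 14.8% of all genes. The median difference of the 30 genes was 0.77 on the log2(FPKM + 0.1) scale, against -0.03 over all genes tested. Zbp1, Ifi27l2a, Ifit1, Isg15 and Oas1a had the largest differences, and Stat2 was the only gene with a lower fitted mean in HFD. On this scale the change of genes with low FPKM is understated.

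The groups were often fully apart. In 10 of the 30 tested genes every HFD mouse exceeded every NC mouse, against 5.48% of all genes tested. Without NC6 this held for 14 genes, against 6.81%, and 24 genes were called higher. The median of the 30 genes was 0.91 without NC6 and 0.68 without NC5. Gbp2 (adjusted p = 0.0101 by limma) and Ifi47 (adjusted p = 0.00482) were called without NC6 and not with it. With every mouse rescaled to the same FPKM sum, the median over all genes moved to 0.15, that of the 30 genes moved to 0.96, and the calls over all genes changed from 1092 higher and 970 lower to 2100 higher and 334 lower.

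**Figure D2:**
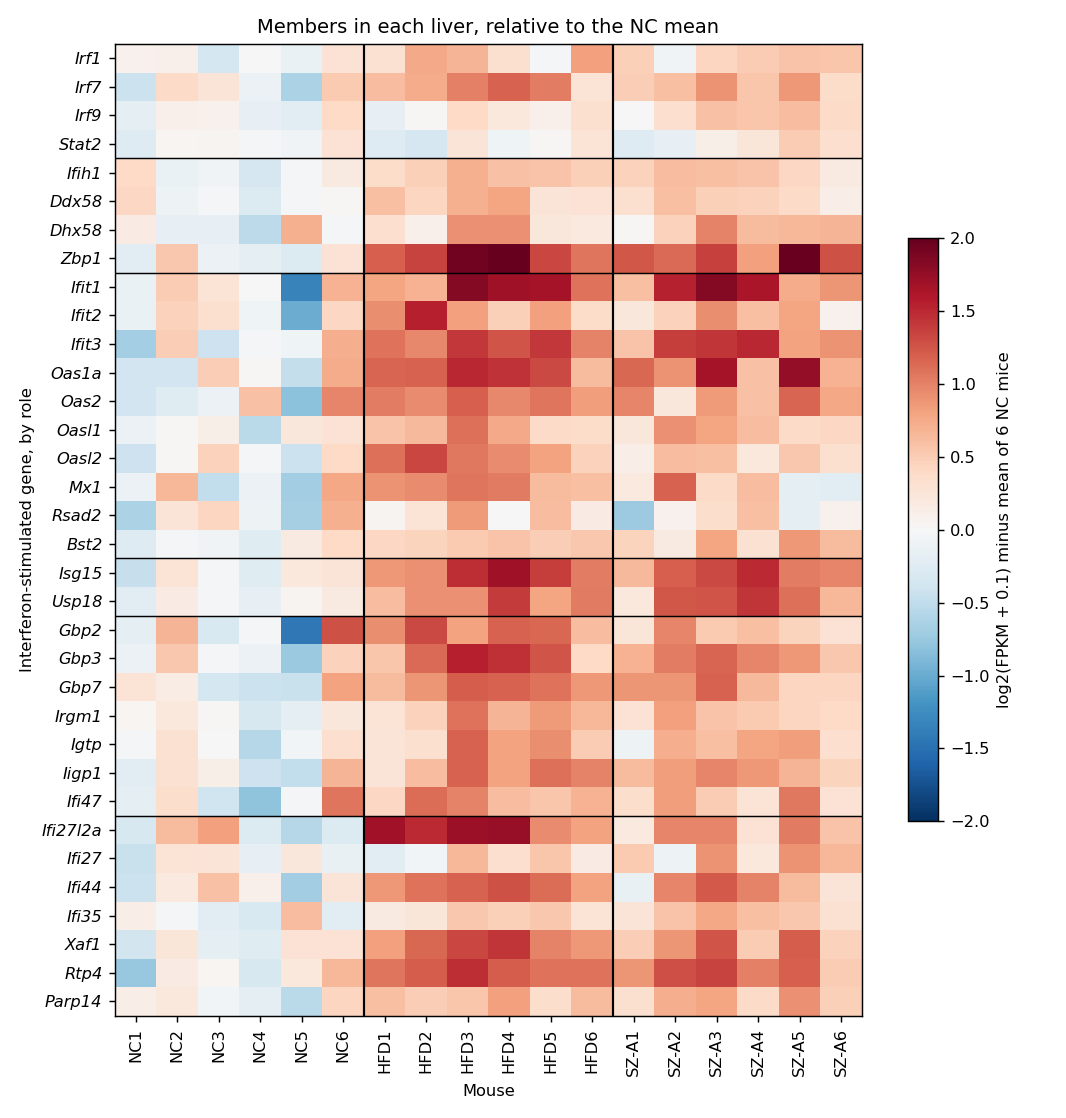
Level of each of the 34 genes (rows, grouped by role) in each of the 18 mice (columns), as log2(FPKM + 0.1) minus the mean of the 6 NC mice, with values past 2 drawn at the end of the colour scale. Red fills most HFD and SZ-A columns, and NC6 is the reddest NC column. Stat2, Irf9, Ifi27 and Rsad2 have the smallest mean differences between HFD and NC (-0.02, 0.15, 0.24 and 0.33).

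Among the transcription factors, Irf1 and Irf7 rose with the high-fat diet and Irf9 and Stat2 were not called. Irf7, the chief inducer of interferon alpha genes, ranged from 4.20 to 9.46 FPKM in NC (median 6.93), from 7.90 to 14.9 in HFD (median 12.1) and from 8.49 to 12.3 in SZ-A (median 9.79). Of the HFD mice, 5 lay above all NC mice. Its difference between HFD and NC was 0.81 (SE 0.21, adjusted p = 0.0157 by limma). Irf1, an early factor of the interferon gamma response, averaged 4.15 ± 0.63 FPKM in NC, 5.89 ± 1.33 in HFD and 5.57 ± 0.84 with SZ-A (SD, n = 6), a rise of 0.48 that was the weakest call of the 22 (adjusted p = 0.0401 by limma). The call of Irf1 was lost in 10 of 23 alternatives and that of Irf7 in 1 (adjusted p = 0.0536 by limma).

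Irf9 and Stat2 are the subunits that give ISGF3 its DNA contact and its activation domain. Irf9 ranged from 5.79 to 9.05 FPKM in NC (median 6.68), from 6.08 to 9.08 in HFD (median 7.61) and from 6.82 to 10.5 in SZ-A (median 9.52). Its difference between HFD and NC was 0.15 (95% interval -0.12 to 0.42). Stat2 averaged 7.52 ± 0.95 in NC, 7.47 ± 1.34 in HFD and 8.34 ± 1.71 with SZ-A (SD, n = 6), with a difference between HFD and NC of -0.02 (95% interval -0.28 to 0.24). The sign of that difference turned positive (0.17) with rescaled FPKM. The HFD and NC ranges of both genes overlapped almost wholly.

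Of the 4 nucleic acid sensors, 3 rose in HFD. Zbp1, which binds left-handed nucleic acid and can trigger necroptosis, ranged from 0.857 to 1.58 FPKM in NC (median 0.940), from 2.34 to 5.76 in HFD (median 2.85) and from 1.94 to 4.46 in SZ-A (median 2.68). All HFD and all SZ-A mice exceeded all NC mice. The HFD mean was 3.17 times the NC mean, and the difference of 1.54 (SE 0.22) was the largest of the 30 genes (adjusted p = 5.64e-04 by limma). Ifih1 and Ddx58 encode MDA5 and RIG-I, the sensors of viral double-stranded RNA, and rose by 0.53 and 0.51. Dhx58, which encodes their regulator LGP2, had a difference of 0.45 that was not called (adjusted p = 0.136 by limma), and NC5 with 4.79 FPKM lay above 4 of the 6 HFD mice.

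The antiviral effectors held the widest range of levels. Of the 7 tested, 6 rose in HFD, and Rsad2 was not called. The IFIT proteins capture viral RNA with foreign ends, and Ifit3 ranged from 2.61 to 7.07 FPKM in NC (median 4.08), from 8.33 to 11.5 in HFD (median 9.74) and from 6.37 to 12.3 in SZ-A (median 9.60). The HFD and NC ranges of Ifit3 did not overlap, and the difference was 1.19 (SE 0.21, adjusted p = 0.0017 by limma). Ifit1 ranged from 1.07 to 4.67 in NC, from 4.69 to 10.5 in HFD and 4.37 to 10.4 with SZ-A, so that the highest NC mouse, NC6, lay just below the lowest HFD mouse. Ifit1 had a larger difference with a larger error, 1.29 (SE 0.32, adjusted p = 0.0116 by limma). Ifit2, at 0.935 ± 0.329 FPKM in NC and 1.71 ± 0.58 in HFD (SD, n = 6), rose by 0.83, a call lost in 7 of 22 alternatives.

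The OAS enzymes make short adenylate chains that activate RNase L. Oas1a averaged 1.21 ± 0.49 FPKM in NC, 2.81 ± 0.57 in HFD and 2.73 ± 0.98 with SZ-A (SD, n = 6), a rise of 1.21 between HFD and NC. Oasl1, a related protein without that activity, averaged 3.78 ± 0.74, 5.93 ± 1.21 and 5.60 ± 1.04 in the same order, and all HFD mice exceeded all NC mice. Bst2, which encodes tetherin and holds budding virus at the cell surface, was by far the most abundant effector at 82.4 to 130.02 FPKM in NC, from 130.8 to 145 in HFD and 111 to 178 with SZ-A. Its smaller rise of 0.50 still separated HFD from NC without overlap, by less than 1 FPKM between NC6 and HFD1. Rsad2, which encodes viperin, ranged from 2.14 to 5.68 in NC, from 3.40 to 6.25 in HFD and 2.03 to 5.23 with SZ-A, and the groups overlapped broadly (0.33, 95% interval -0.19 to 0.84, HFD against NC).

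The effectors below the level tested rest on few fragments. Oasl2 averaged 0.576 ± 0.177 FPKM in NC, 1.19 ± 0.25 in HFD and 0.775 ± 0.126 with SZ-A (SD, n = 6), from 40 to 227 fragments a mouse. Every HFD mouse lay above every NC mouse, and every SZ-A mouse lay below the HFD mean. Oas2 averaged 0.280 ± 0.184, 0.600 ± 0.059 and 0.502 ± 0.130 from 7 to 58 fragments a mouse. Mx1, of which C57BL/6 mice carry a defective allele, averaged 0.246 ± 0.147, 0.490 ± 0.080 and 0.327 ± 0.168 from 6 to 47 fragments a mouse. When genes of all levels were tested, Oasl2 (adjusted p = 0.0149) and Oas2 (0.0486) were called higher in HFD than in NC by limma, and Mx1 was not (0.0691).

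Both genes of ISG15 conjugation rose, with no overlap between HFD and NC. Isg15, the ubiquitin-like modifier, lies at chr4:156199424-156200818 in the table, and ranged from 5.26 to 8.80 FPKM in NC (median 7.81), from 13.3 to 23.9 in HFD (median 17.0) and from 11.5 to 20.6 in SZ-A (median 15.9). The lowest HFD mouse and the lowest SZ-A mouse both exceeded the highest NC mouse. The HFD mean was 2.37 times the NC mean, a difference of 1.22 (SE 0.17, adjusted p = 4.48e-04 by limma). Usp18, which strips ISG15 from proteins and restrains the type I receptor, ranged from 2.53 to 3.32 in NC, from 4.56 to 7.86 in HFD and 3.40 to 8.02 with SZ-A. It had the smallest adjusted p of the 30 genes (2.53e-04 by limma, difference 0.95, SE 0.12), and the NC mice differed little from each other (SD 0.339, n = 6).

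**Figure D3:**
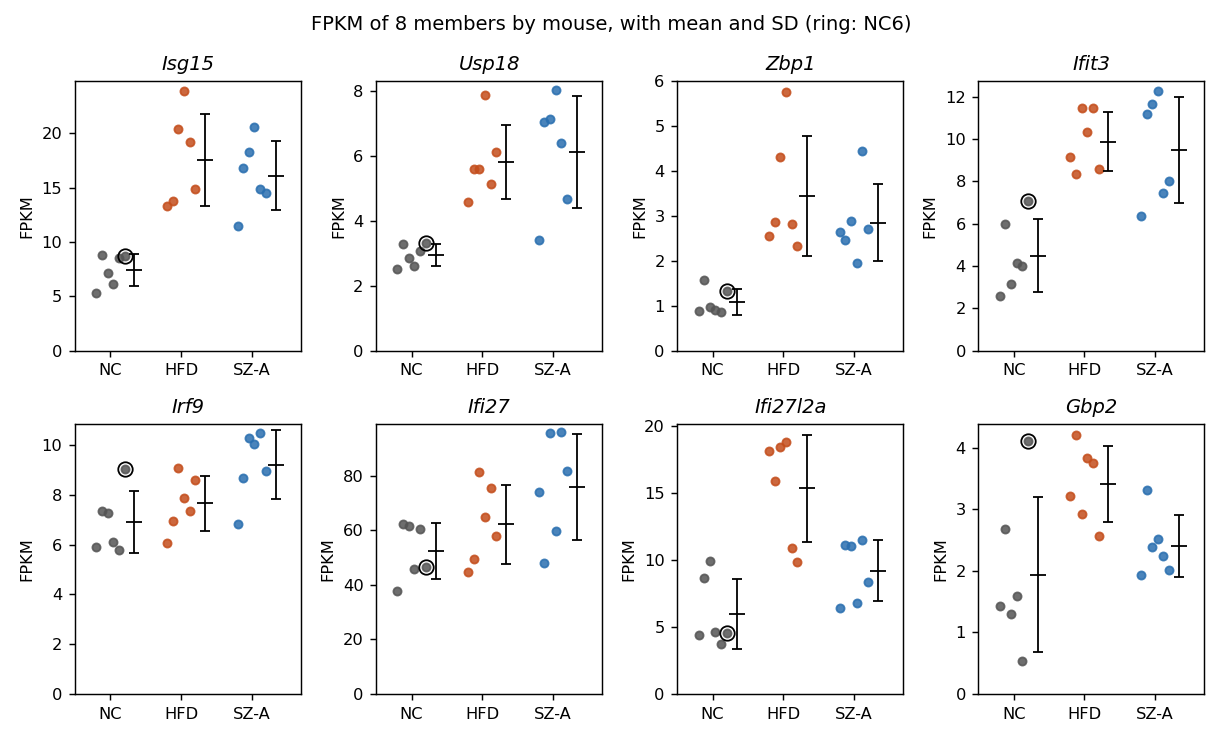
FPKM of 8 genes in each mouse (points), by group, with the group mean and SD (bars, n = 6) and a ring around NC6. All HFD points of Isg15, Usp18, Zbp1 and Ifit3 lie above all NC points, Irf9 and Ifi27 overlap, and in Gbp2 the ringed NC6 at 4.11 FPKM lies among the HFD mice.

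Among the GTPases, 5 of 7 rose in HFD. Guanylate-binding proteins coat vacuoles and bacteria inside cells. Gbp3 ranged from 0.794 to 2.09 FPKM in NC (median 1.34), from 1.89 to 4.33 in HFD (median 3.35) and from 2.08 to 3.27 in SZ-A (median 2.74), and rose by 1.06 in HFD (SE 0.25, adjusted p = 0.0085 by limma). Gbp7 averaged 1.40 ± 0.56 in NC, 2.73 ± 0.42 in HFD and 2.32 ± 0.50 with SZ-A (SD, n = 6) and rose by 0.98. Gbp2 ranged from 0.540 to 4.11 in NC, from 2.57 to 4.20 in HFD and 1.94 to 3.32 with SZ-A. Its difference of 1.0 was not called (adjusted p = 0.0561 by limma), with NC6 above all but 1 of the HFD mice and NC5 lowest of all mice.

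The immunity-related GTPases attack the vacuoles of parasites. Irgm1, a regulator of the family, ranged from 5.36 to 7.92 FPKM in NC (median 6.88), from 8.14 to 14.4 in HFD (median 10.8) and from 8.27 to 11.996 in SZ-A (median 9.37). Neither range of the high-fat-fed groups overlapped that of NC, and the difference between HFD and NC was 0.67 (SE 0.14, adjusted p = 0.00439 by limma). Iigp1, the most abundant of the family, averaged 65.3 ± 21.5 in NC, 113 ± 25 in HFD and 105 ± 14 with SZ-A (SD, n = 6) and rose by 0.82. Igtp averaged 9.83 ± 2.10, 15.7 ± 4.0 and 14.3 ± 3.2 in the same order and rose by 0.67, a call lost in 2 of 23 alternatives. Ifi47 had a difference of 0.73 that was not called (adjusted p = 0.058 by limma), and NC6 at 10.2 FPKM lay above all but 1 of the HFD mice.

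Of the 6 other genes tested, 4 rose in HFD. Ifi27l2a, a small interferon-induced membrane protein, ranged from 3.73 to 9.87 FPKM in NC (median 4.58), from 9.84 to 18.8 in HFD (median 17.0) and from 6.43 to 11.5 in SZ-A (median 9.66). Of the HFD mice, 5 exceeded all NC mice, and the HFD mean was 2.56 times the NC mean (difference 1.40, SE 0.25, adjusted p = 0.00223 by limma). Its neighbour and relative Ifi27 differed from this pattern, with 52.3 ± 10.3 FPKM in NC, 62.3 ± 14.5 in HFD and 75.9 ± 19.4 with SZ-A (SD, n = 6), and was not called. These relatives share sequence, and how fragments that match several copies were counted is not given in the sources used here.

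Rtp4, a chaperone of receptors, ranged from 2.05 to 5.64 FPKM in NC (median 3.79), from 7.55 to 10.03 in HFD (median 7.97) and from 5.07 to 9.17 in SZ-A (median 7.74). HFD and NC did not overlap, and the difference was 1.19 (SE 0.19, adjusted p = 9.16e-04 by limma). Xaf1, which opposes a caspase inhibitor, averaged 0.588 ± 0.140 in NC, 1.37 ± 0.25 in HFD and 1.11 ± 0.32 with SZ-A (SD, n = 6), and all mice of both high-fat-fed groups exceeded all NC mice. Parp14, which attaches ADP-ribose to proteins, rose by 0.57. Ifi35 had a difference of 0.38 that was not called (adjusted p = 0.0805 by limma). Ifi44, below the level tested, averaged 0.342 ± 0.135, 0.786 ± 0.110 and 0.602 ± 0.229 in NC, HFD and SZ-A, with all HFD mice above all NC mice. When genes of all levels were tested, Ifi44 was called higher in HFD than in NC (1.06, adjusted p = 0.0123 by limma).

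**Figure D4:**
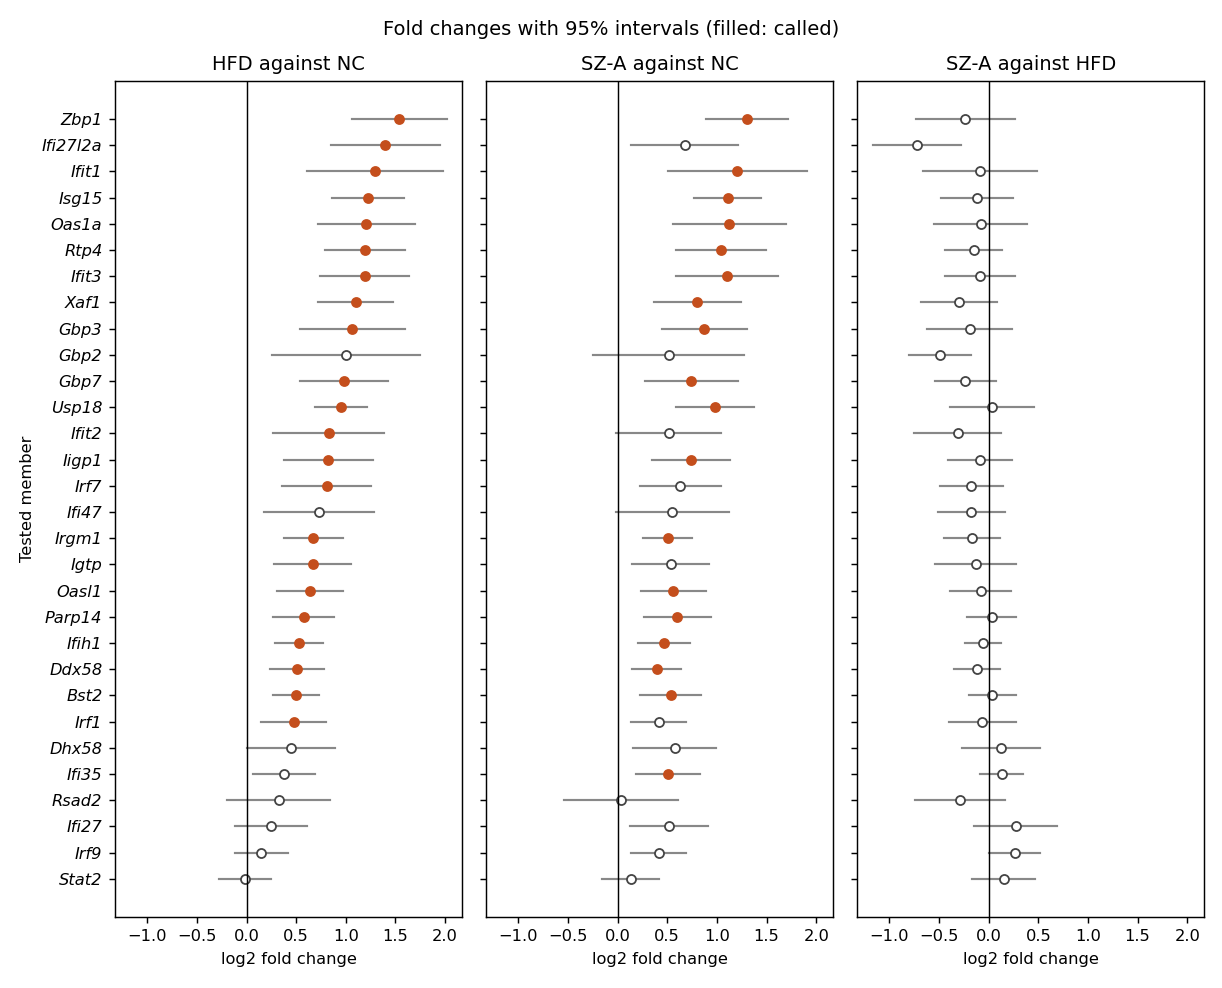
Difference of mean log2(FPKM + 0.1) with its 95% interval for the 30 tested genes (rows) in HFD against NC, SZ-A against NC and SZ-A against HFD (panels), with filled points for genes called by limma. The left panel has 22 filled points, the middle 18 and the right none, where 27 of 30 intervals hold 0.

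The next question was whether SZ-A-treated livers differed from HFD livers, which share the diet. None of the 30 genes was called in either direction (limma, adjusted p from 0.141 to 0.952), and voom on fragments also called none. Over all genes tested 0.0783% were called higher and 0.0685% lower, so few genes of any kind passed. At an unadjusted p under 0.05 with a fold over 1.2, 2 genes were lower and none higher, against 4.59% and 4.43% of all genes. Fitted means were lower in SZ-A for 22 genes and higher for 8, with a median of -0.10 against 0.03 over all genes. In none of the 30 genes did all SZ-A mice lie below all HFD mice or all above, against 0.489% and 0.793% of all genes tested.

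Ifi27l2a and Gbp2 were the 2 genes that met this looser rule. Ifi27l2a differed by -0.72 (95% interval -1.17 to -0.28, adjusted p = 0.141 by limma), and all 6 SZ-A mice lay below the HFD mean. Gbp2 differed by -0.49 (95% interval -0.80 to -0.18, adjusted p = 0.150 by limma), again with all 6 SZ-A mice below the HFD mean. Ifi27l2a passed by limma with sample weights (adjusted p = 0.0465) and Gbp2 passed with rescaled FPKM (adjusted p = 0.048), and neither passed elsewhere. Calls over all genes tested also rose, from 8 higher and 7 lower to 108 and 125 with sample weights. With rescaled FPKM they were 10 higher and 206 lower. The study's own count test, at the same thresholds, called more genes between these groups. The study reported Ifi27l2a, along with the chemokine gene Cxcl9, as significantly lower with SZ-A. Irf9 was higher in SZ-A by 0.26 with an interval just above 0, and its fold lay under 1.2.

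For the remaining 27 genes the 95% interval held 0. The GTPases had lower fitted means in SZ-A in 7 of 7 genes, with a median of -0.18, and only Gbp2 among them had an interval that left out 0. Isg15 differed by -0.12 (95% interval -0.48 to 0.25) and Usp18 by 0.04 (95% interval -0.39 to 0.46). Bst2 differed by 0.04 (95% interval -0.20 to 0.27). With every mouse rescaled to the same FPKM sum, the median over all genes moved to -0.15 and that of the 30 genes to -0.28, and Stat2, Dhx58, Bst2, Usp18, Ifi35 and Parp14 changed sign.

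The third comparison set SZ-A against NC and shares its NC mice with the first. In it 18 of the 30 genes were called higher and none lower, against 5.31% of all genes called higher and 4.3% lower. At an unadjusted p under 0.05 with that fold, 25 were higher and none lower, against 11.6% and 8.6% of all genes. All 30 fitted means were higher in SZ-A, with a median of 0.57 against -0.01 over all genes. Of the 22 genes called in HFD, 17 were called here and 5 were not, namely Irf1, Irf7, Ifit2, Igtp and Ifi27l2a, and Ifi35 was called here only. Without NC6, Irf1 and Irf7 were called here and Ifi35 was not (adjusted p = 0.0886 by limma), and Ifi35 also lost its call in 14 of 23 alternatives. An adjusted p on either side of the threshold does not show that the groups differ, and for these genes the comparison of SZ-A with HFD was not called.

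Zbp1 (1.30, SE 0.19), Ifit1 (1.21, SE 0.32), Oas1a (1.12, SE 0.26) and Isg15 (1.11, SE 0.16) had the largest differences of SZ-A from NC. Every SZ-A mouse exceeded every NC mouse in 5 genes, which were Zbp1, Isg15, Usp18, Irgm1 and Xaf1, against 2.83% of all genes tested. Without NC6 this held for 13 genes, against 3.81%, and 20 genes were called. By role, 3 of 4 sensors, 5 of 7 effectors, both genes of ISG15 conjugation, 4 of 7 GTPases and 4 of 6 other genes were called, and none of the 4 transcription factors was, of which Irf7 came nearest (0.63, adjusted p = 0.0517 by limma). Without NC6, 3 of these 4 were called by limma, namely Irf9 (adjusted p = 0.0249), Irf7 (0.0256) and Irf1 (0.0396). The count depended on single mice, with 11 genes called without NC1, 11 without NC3, 8 without NC4 and 8 without SZ-A3. In the same fits the calls higher over all genes tested fell from 542 to 432, 401, 429 and 332. The median of the 30 genes was 0.55, 0.58, 0.50 and 0.54 in these fits, against 0.57 with all mice. Zbp1, Isg15, Usp18, Irgm1 and Rtp4 were called under every alternative in which they were tested.

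Seen by group means, SZ-A lay between NC and HFD in 22 of the 30 tested genes and in 26 of all 34. The exceptions, where the SZ-A mean lay above the HFD mean, were Irf9, Stat2, Dhx58, Bst2, Usp18, Ifi27, Ifi35 and Parp14. All 34 genes had a higher mean in SZ-A than in NC, and 33 had a higher mean in HFD than in NC. The shares of all genes with these orders of means were not counted, and the orders were not tested. Rsad2 counted as between with means of 3.659 FPKM in SZ-A and 3.656 in NC. The genes did not stand at a common point between the groups. Ifi27l2a, at 9.19 ± 2.29 FPKM in SZ-A (SD, n = 6), stood about midway on the log2(FPKM + 0.1) scale. It lay 0.67 above NC and 0.72 below HFD there. Ifit3, at 9.49 ± 2.49 FPKM in SZ-A, stood near its HFD mean of 9.88 ± 1.40 (SD, n = 6).

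Single mice tended to be high or low for many of the genes at once. The ranks of the mice over all genes tested were not counted, and whether this is particular to the 34 genes was not tested. Relative to the NC mean, the median over the 34 genes was 0.40 in NC6 and -0.21 to 0.21 in the other NC mice. It was 0.61 to 1.06 in HFD, lowest in HFD1 and highest in HFD3, and 0.34 to 0.88 in SZ-A, lowest in SZ-A1 and highest in SZ-A3. HFD3 was the highest HFD mouse for 16 genes and HFD4 for 11, while SZ-A1 was the lowest SZ-A mouse for 17 and SZ-A6 for 10. NC6 reached at least the level of the lowest HFD mouse in 17 of the 34 genes. The medians of SZ-A1 and NC6 were thus close, although the mice belong to different groups by title.

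**Figure D5:**
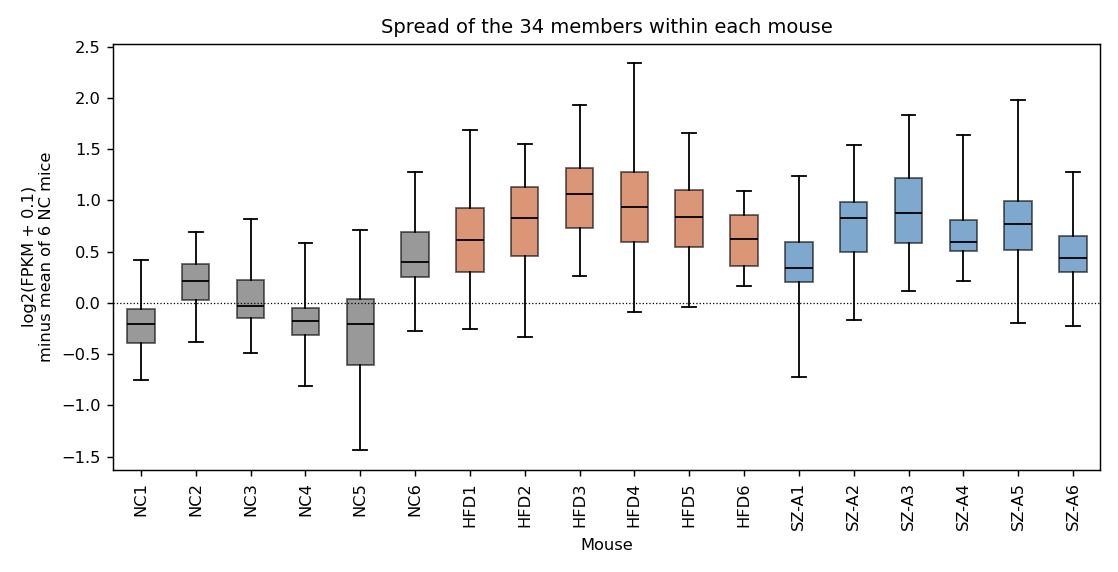
Spread of the 34 genes in each mouse as log2(FPKM + 0.1) minus the mean of the 6 NC mice, with the line at the median, the box over the middle of the genes from the lower to the upper quartile and whiskers to the lowest and highest gene. The medians of all HFD mice lie between 0.61 and 1.06, above every NC mouse, and SZ-A1 at 0.34 lies below NC6 at 0.40.

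The interferon genes themselves were near the limit of detection. Ifnb1 held 4 fragments over the 6 NC mice and none in HFD or SZ-A, and Ifng held 0, 1 and 1 in NC, HFD and SZ-A. Ifna1, Ifna2, Ifna4, Ifne, Ifnl2 and Ifnl3 held none in any mouse, and a count of 0 allows up to 3 fragments, by counting error only. Ifnk held 10, 7 and 6 fragments and Ifnlr1, the receptor chain for type III interferon, 11, 14 and 24. At this depth these genes were too low to be tested.

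The receptors were well expressed. Of 5 tested genes of the list of interferons and receptors, 2 were called higher in HFD than in NC, against 10.7% of all genes. Ifngr1, a chain of the interferon gamma receptor, averaged 6.16, 7.72 and 6.73 FPKM in NC, HFD and SZ-A and rose by 0.31 in HFD (adjusted p = 0.0244 by limma). Il10rb, shared by the type III interferon and interleukin-10 receptors, rose by 0.47. Ifnar1, Ifnar2 and Ifngr2 were not called, with differences of 0.10, -0.18 and 0.21. None of the 5 was called in SZ-A against NC or against HFD.

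Among genes of JAK-STAT and IRF signalling, Irf5 rose in HFD against NC by 0.52, and Socs3, a feedback inhibitor of cytokine receptors, by 0.87 (adjusted p = 0.0136 by limma). Of the 13 tested, Socs3 and Irf2 were called higher in SZ-A than in NC, against 5.31% of all genes. The kinases Jak1, Jak2 and Tyk2 had differences of 0.06, 0.28 and 0.36 between HFD and NC and were not called. Over all genes tested, 10.7% were called higher and 9.49% lower in HFD than in NC. Of 8 tested genes of nucleic acid sensing, 2 were called higher in HFD than in NC, and the other 6 were not called. Ikbke, a kinase that activates IRF3 and IRF7, rose by 1.06 and Tmem173, which encodes STING, by 0.69. The median difference of the 8 genes between HFD and NC was 0.0046. Ikbke was the only one called in SZ-A against NC, where it was higher (0.70, adjusted p = 0.00975 by limma).

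A further 51 interferon-induced genes were in the table, of which 33 were tested. In HFD against NC 19 were called higher and none lower, against 10.7% and 9.49% of all genes tested. Their median was 0.57, against -0.03 over all genes. Ifi27l2b, a close relative of Ifi27l2a, averaged 3.85, 20.9 and 11.8 FPKM in NC, HFD and SZ-A and rose by 2.40 in HFD (adjusted p = 2.78e-05 by limma). Gbp10 rose by 2.56, the chemokine Cxcl10 by 1.93, Gbp11 by 1.78 and Samd9l, a restriction factor, by 1.38. Ifitm3, a barrier to viral entry, averaged 222, 412 and 462 FPKM and rose by 0.89. The other genes called were Ifit3b, Irgm2, Gm12250, Parp12, Isg20, Lgals3bp, Trim21, Trim30a, Sp100, Slfn2, Slfn5, Ifi203 and Ifi204.

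In SZ-A against NC 9 of these 33 genes were called higher, namely Ifi27l2b, Gbp10, Gbp11, Samd9l, Ifitm3, Lgals3bp, Parp12, Parp9 and Mx2. Over all genes tested 5.31% were called higher in that comparison. In SZ-A against HFD none was called by limma, and 13 were lower at an unadjusted p under 0.05 with a fold over 1.2, against 4.59% of all genes. The counterpart among the 30 genes was 2, and the difference between these counts was not tested. Cxcl9, a chemokine for T cells, and Gbp9 had the smallest adjusted p of the 33 in SZ-A against HFD (0.0880 and 0.0977 by limma, differences -0.88 and -0.73) and are named after their values were seen. The 9 genes of the immunoproteasome and peptide loading widen the peptides shown to T cells. Of the 9, Psmb8, Psmb9, Psmb10, Tap1 and Tapbp rose in HFD against NC, where 10.7% of all genes were called higher. In SZ-A against NC 4 of these, all but Tap1, were called, against 5.31% of all genes called higher.

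Marker genes of other liver cells differed between the groups too. Over all genes tested, 10.7% were called higher and 9.49% lower in HFD than in NC. In whole liver, more cells of a type and more RNA per cell cannot be told apart. The summed level of 10 Kupffer cell and macrophage markers was 172 to 306 FPKM in NC, from 259 to 471 in HFD and 275 to 365 with SZ-A, and 5 of the 10 were called higher in HFD than in NC. Cd68, a lysosomal macrophage marker, was called lower in SZ-A than in HFD (-0.64, adjusted p = 0.0451 by limma). The sums of NC6 (306) and NC3 (276) were the highest of the NC mice, and that of NC5 (172) was the lowest. In HFD the sums were lowest in HFD6 (259) and HFD1 (289), the lowest HFD mice for 12 and 14 interferon-stimulated genes. HFD3, the highest HFD mouse for 16 of these genes, had 318, below HFD2, HFD4 and HFD5. HFD4, the highest for 11 genes, had 427, and HFD5, the highest for 1 gene, had 471.

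Markers of neutrophils and monocytes (7 genes) summed to 1.74 to 6.89 FPKM in NC, from 6.92 to 22.3 in HFD and 5.07 to 18.8 with SZ-A, and 2 of the 3 tested were called higher in HFD. T and NK cell markers (10 genes) stayed between 0.724 and 3.74 and dendritic cell markers (7 genes) between 0.259 and 3.24 in all mice, and none reached the level tested. Stellate cell markers (6 genes) were called higher in HFD for 4 genes, endothelial markers (8 genes) for 1, and the 2 tested B and plasma cell markers of 6 for none. Of 4 adipocyte markers only Cfd reached the level tested, with means of 2.91, 52.4 and 7.54 FPKM in NC, HFD and SZ-A, and it was called higher in HFD. Adipoq and Plin1, the defining markers, were near 0 and had lower means in HFD (0.0913 and 0.0126 FPKM) than in NC (0.202 and 0.0742), and Lep was detected in 1 HFD mouse. The 8 hepatocyte markers summed to between 43413 and 61687 FPKM in NC (median 46591), 29137 and 48293 in HFD (median 34557), and 34745 and 60452 in SZ-A (median 38728), and 4 were called lower in HFD than in NC. The part of these cell types in the changes of the interferon-stimulated genes was not tested.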

How the data were processed

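Poly-A RNA of 18 livers was sequenced by the authors. According to the submitters' processing notes, HISAT2 2.0.5, featureCounts 1.5.0-p3 and mm10 were used. The authors deposited 1 table of FPKM with gene length and position. FPKM times length gave whole fragments for 100% of values (tolerance 0.05). FPKM depend on the library size used, so scaling was varied. No pair of the 18 libraries differed by as little as sampling noise.

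Genes that averaged 1 FPKM or more were tested on log2(FPKM + 0.1) with limma 3.58.1 in R 4.3.3 (lmFit, eBayes with trend), a fit for each pair of groups. Calls needed a fold over 1.2 and an adjusted p (Benjamini-Hochberg) under 0.05. Limma on FPKM, the deposited unit, took the place of the study's count test. Tests were tried on simulated data. Voom on the whole fragments was an alternative and called 1213 genes higher and 800 lower in HFD against NC, against 1092 and 970.

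All 34 genes of the list are named. Of the other pathway genes, those called in any comparison are named, except 1 that is not reported here, and otherwise up to 3 per list with the largest difference in HFD against NC. Genes, lists and roles were chosen with earlier results of these data known. Each library is 1 mouse. Promoter windows came from RefSeq. Same-numbered mice do not pair (correlations of deviations from -0.12 to 0.29). Gbp, Ifit, Oas and Ifi27 genes have close copies, and strand use in the counting is not given in the sources used here.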

Additional observations from a re-analysis of the deposited data

Results flagged for a closer look

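In 3 of the 102 groups of 6 values (34 genes in 3 groups), 1 mouse stood far from the other 5, and chance flags about 1 group in 20. Irf1 was 3.92 FPKM in SZ-A2, against 5.55 to 6.19 in the other SZ-A mice. Rtp4 was 10.03 FPKM in HFD3, against 7.55 to 8.33 in the other HFD mice. Ddx58 was 3.80 FPKM in NC1, against 2.32 to 2.86 in the other NC mice.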

How the results depend on the processing

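The calls in HFD against NC were the steadiest. Of the 22 genes called higher, 18 were called under every alternative in which they were tested, and Irf1, Ifit2, Igtp and Irf7 lost their call in some. The count was 12 at a mean FPKM of at least 5, where 17 of the 34 genes were tested, and 20 to 24 when 1 mouse was left out. In SZ-A against HFD, 1 gene was called lower with FPKM rescaled to a common sum, 1 with sample weights and 2 at an unadjusted p, against 0 otherwise, whichever mouse was left out. In SZ-A against NC the count of 18 of 30 was 10 of 17 at a mean FPKM of at least 5. It fell to 5 of 34 with no filter on low values. There the calls higher over all genes fell from 542 of 10216 to 307 of 27266. The count ranged from 8 to 20 when 1 mouse was left out, while the median of the 30 genes stayed between 0.50 and 0.66. The count thus varied with the mice kept and with how many genes were tested. With the replicate number as a block, 21, 0 and 13 genes were called in HFD against NC, SZ-A against HFD and SZ-A against NC. The numbers do not pair the mice, so the block has no basis in the design.

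Signs changed for small differences that were not called. For Stat2 in HFD against NC the difference was 0.17 with rescaled FPKM, 0.0050 with median-ratio scaling, 0.0044 with voom and -0.0792 to 0.0413 when 1 mouse was left out. In SZ-A against HFD with rescaled FPKM it was -0.0467 for Ifi35, -0.0261 for Stat2, -0.1391 for Usp18, -0.1422 for Bst2, -0.0495 for Dhx58 and -0.1461 for Parp14. With sample weights it was 0.1017 for Ifit1, 0.0104 for Ifit3 and 0.0008 for Iigp1. Leaving out each mouse gave -0.2118 to 0.0352 for Ifit1, -0.1705 to 0.0164 for Ifit3, -0.0915 to 0.0009 for Ifih1, -0.1656 to 0.0338 for Irf1, -0.2076 to 0.0251 for Oas1a, -0.1493 to 0.0145 for Oasl1, -0.0525 to 0.1905 for Usp18, -0.0289 to 0.1082 for Bst2 and -0.0338 to 0.0839 for Parp14. In SZ-A against NC, Rsad2 was -0.0490 with sample weights and -0.0963 to 0.1872 when each mouse was left out. The causes were not tested. Depth limits the interferon genes, which held at most 10 fragments in a group, and Mx1 and Oas2.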
